A study of Mus musculus with 12 samples.

Results

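Ankrd1 and 8 further genes of the YAP pathway were followed across mouse tail tip fibroblasts with intact, singly disrupted and doubly disrupted Hotair. The 9 genes were taken by symbol from the 24132 gene symbols of the expression table: the target genes Ankrd1, Ctgf, Cyr61 and Axl, the pathway inhibitors Amotl2 and Lats2, the coactivators Yap1 and Wwtr1, and the DNA-binding partner Tead1. All 9 were in the table and above the 1 RPKM filter in every group. Ankrd1 was selected on its measured log2 difference between knockout and wild-type cells, and the other genes were listed by known function when values of that comparison were already known. The knockout against wild-type values of the 9 genes are therefore given as a description, without a test.

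The cells were fibroblasts grown from the tail tips of newborn mice of a line backcrossed to C57BL6, and polyadenylated RNA was sequenced from 2 libraries of Hotair wild-type cells, 2 of heterozygous cells and 2 of knockout cells. Hotair is a long noncoding RNA of the HoxC cluster. The labels name no Cre, transgene or treatment, and they do not describe the disrupted allele further. The labels do not say whether the libraries of a genotype came from separate animals or cultures, so the spread between them may be technical. The 6 ChIP libraries of the series are not analysed here.

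YAP and its paralog TAZ, the products of Yap1 and Wwtr1, are transcriptional coactivators without a DNA-binding domain of their own. They act mainly through the TEAD factors, which recognise the element CATTCC. The Hippo kinases encoded by Lats1 and Lats2 phosphorylate both coactivators and keep them in the cytoplasm, and angiomotin proteins, among them AMOTL2, bind and hold them there. In fibroblasts the pathway is known as a sensor of substrate stiffness, cell spreading and actin tension, and because YAP is governed by phosphorylation and location, the level of Yap1 mRNA does not report its activity. Lats2 and Amotl2 are themselves described as YAP targets, which makes them part of a negative feedback loop.

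Libraries held between 27.9M and 48.1M reads, with 1.64 times as many per library in knockout as in wild type. Hotair was at 0.247 and 0.183 RPKM (read level scaled to transcript length and library depth) in wild type, at 0.213 and 0.172 RPKM in heterozygous cells and at 0 in both knockout libraries. The heterozygous libraries differed from the other 4 in sex-linked transcripts: Xist was at 4.65 and 4.46 RPKM there and at most 0.0479 RPKM elsewhere. Ddx3y was at 0.133 and 0.216 RPKM there, at 1.68 and 1.80 RPKM in wild type and at 2.88 and 2.86 RPKM in knockout cells. Genotype and this difference of the heterozygous libraries cannot be told apart in any comparison with heterozygous cells. Y-linked transcripts also differed between wild type and knockout, with Eif2s3y at 1.85 and 1.99 RPKM against 4.95 and 5.58 RPKM. The part of that difference in the results was not tested. All 10 fibroblast markers stood at 1 RPKM or more in all 6 libraries, but their levels differed between genotypes. In knockout against wild type 7 of them fell and 3 rose past the limma threshold (26.6% and 40.6% of all genes). Mean Thy1 dropped from 190 RPKM in wild type to 94.8 RPKM in knockout cells, with heterozygous cells at 124 RPKM. Dcn went the other way, from a wild-type mean of 12.5 RPKM through 20.6 RPKM to a knockout mean of 28.2 RPKM. Of 10 macrophage and leukocyte markers, 3 reached 1 RPKM in both wild-type libraries and 6 in both knockout libraries; their summed level was between 8.90 and 10.4 RPKM in wild type, between 7.42 and 8.41 RPKM in heterozygous and between 52.3 and 52.7 RPKM in knockout cells, with Emr1 at 0 in both heterozygous libraries and no other marker of the 10 at 0 in both libraries of a group. Of 6 Schwann cell markers, 2 reached 1 RPKM in wild type, 4 in heterozygous and 2 in knockout cells; none was at 0 in both libraries of a group, and they summed to 26.4 RPKM in wild type, between 31.9 and 32.8 RPKM in heterozygous and between 14.8 and 15.4 RPKM in knockout cells. The part of these markers in the results below was not tested. In RNA from a whole culture, fewer cells of a type and less RNA per cell cannot be told apart.

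Ankrd1 encodes CARP, a nuclear and sarcomeric ankyrin repeat protein of heart and skeletal muscle that is also one of the most used reporter genes of YAP activity. Its level was 24.1 and 22.6 RPKM in wild type, 12.6 and 13.4 RPKM in heterozygous cells and 6.25 and 6.75 RPKM in knockout cells. The 3 genotypes formed separate steps, wild type highest and knockout lowest, with no overlap between any pair. Group means were 23.3 ± 1.08, 13.0 ± 0.622 and 6.50 ± 0.351 RPKM (SD, n = 2 libraries each), so the heterozygous level was 0.557 times and the knockout level 0.279 times the wild-type level. At least 300 reads per kilobase of transcript stood behind each of these values, which for a stretch of 1 kb gives a counting error of 5.77%, close to the difference between the replicates.

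On the log2(RPKM + 1) scale, which understates the change of low genes, Ankrd1 was lower by -1.70 ± 0.05 (SE) in knockout than in wild-type cells. Of the 10897 genes tested, 0.0642% had a lower value in that comparison. Ankrd1 fell by 0.80 ± 0.05 in heterozygous against wild-type cells (limma, two-sided, Benjamini-Hochberg adjusted p = 2.92e-05), and it fell by 0.90 ± 0.05 from heterozygous to knockout (limma adjusted p = 2.05e-05). These contrasts share libraries with each other and with the one that chose the gene. The position of the heterozygous level between the other genotypes is not set by the knockout minus wild-type difference, though earlier results of these data were known at the choice. The heterozygous level lay 0.05 ± 0.05 above the midpoint of wild type and knockout, with a 95% interval from -0.06 to 0.16 (limma adjusted p = 0.418). The interval holds equal log2 steps from wild type to heterozygous and from heterozygous to knockout, and it also holds departures of up to 0.16 from equal steps. Hotair RNA overlapped between the wild-type and heterozygous libraries, and the heterozygous libraries differed in sex-linked transcripts. An effect of the dose of Hotair was therefore not tested.

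Ankrd1 is a muscle gene, so striated muscle markers are given beside it. Of 8 such markers Myod1 was at 0 in every library, and only Des, a filament gene, passed the filter, with a knockout mean of 3.01 RPKM against 1.14 RPKM in wild type. The summed level of the list was between 1.90 and 2.27 RPKM in wild type, between 1.96 and 2.16 RPKM in heterozygous and between 3.95 and 4.05 RPKM in knockout cells. Most of the knockout sum was Des, so the sum does not describe the list as a whole. Under the filter, Actn2 stepped down through means of 0.517, 0.448 and 0.321 RPKM from wild type through heterozygous to knockout. Tnnt2 was highest in heterozygous cells, with means of 0.389, 0.751 and 0.542 RPKM in that order. The related muscle ankyrin repeat genes were under the filter: Ankrd2 was at most at a mean of 0.0769 RPKM and Ankrd23 at most at 0.512 RPKM.

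**Figure D1:**
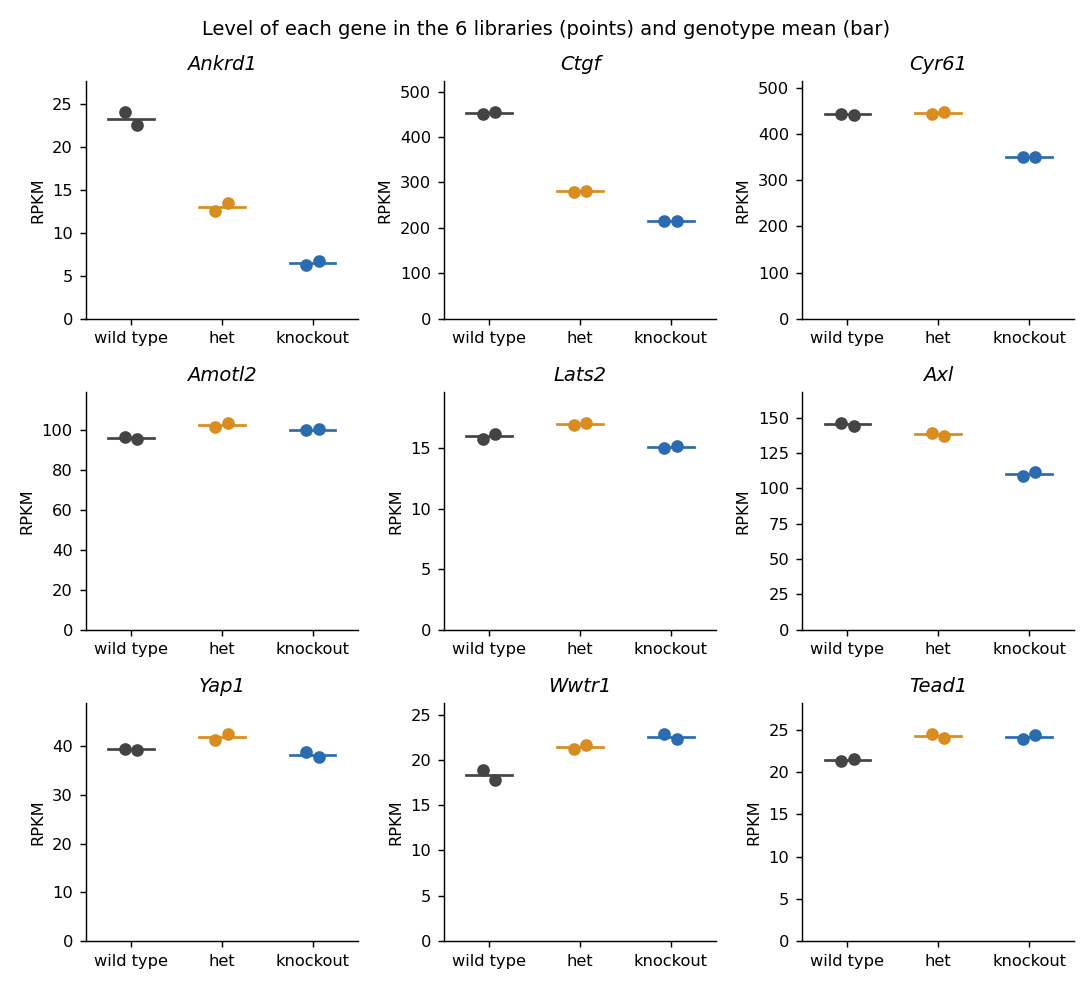
RPKM (vertical axes, each from 0) of the 9 genes in the 2 wild-type, 2 heterozygous (het) and 2 knockout libraries, with points for libraries and bars for means. Ankrd1 steps down from 23.3 to 13.0 to 6.50 RPKM and Ctgf from 453 to 281 to 215 RPKM, while Cyr61, in values as deposited, is lower in knockout cells alone and Amotl2, Lats2 and Yap1 stay within a narrow band.

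The promoter windows of the genes were read from RefSeq (GRCm38.p6, 250 bases before to 50 after an annotated start) for 7 of the 9 genes, and the 250 upstream bases of Ankrd1 and Cyr61 are shown because these targets carry the TEAD element but differed in their heterozygous levels. The Ankrd1 stretch is chr19:36119845-36120094 on the minus strand and the Cyr61 stretch is chr3:145649986-145650235 on the minus strand. Capitals mark CATTCC or its reverse complement GGAATG.
Ankrd1: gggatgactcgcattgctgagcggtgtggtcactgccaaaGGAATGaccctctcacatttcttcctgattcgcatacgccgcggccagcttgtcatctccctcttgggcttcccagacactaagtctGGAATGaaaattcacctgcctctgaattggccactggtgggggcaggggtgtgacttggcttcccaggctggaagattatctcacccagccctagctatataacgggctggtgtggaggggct
Cyr61: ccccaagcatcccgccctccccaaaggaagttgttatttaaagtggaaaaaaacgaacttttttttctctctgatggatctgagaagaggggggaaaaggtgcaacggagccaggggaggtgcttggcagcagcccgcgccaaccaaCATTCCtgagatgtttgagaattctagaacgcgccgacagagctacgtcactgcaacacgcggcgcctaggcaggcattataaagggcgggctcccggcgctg
Ankrd1 held 2 elements, starting 210 and 123 bases upstream of its start, both on the strand opposite to the gene. Cyr61 held 1 element 103 bases upstream on its own strand, and a TATAAA match 25 bases upstream. Windows with 2 or more elements made up 1.36% of the 32851 RefSeq mouse windows of this length.

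CATTCC on either strand was found in windows of all 7 matched genes, against 16.6% of the 27025 genes in the RefSeq table (14.7% of windows). The surrounding bases of the elements upstream of the other 4 genes are given to show that the flanks differ, at chr9:102717719-102717764 on the plus strand for Amotl2, and on the minus strand at chr7:25788941-25788983 for Axl, chr9:8004712-8004757 for Yap1 and chr3:57576021-57576066 for Wwtr1.
Amotl2: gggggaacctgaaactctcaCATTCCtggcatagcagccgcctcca
Axl: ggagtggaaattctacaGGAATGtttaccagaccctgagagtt
Yap1: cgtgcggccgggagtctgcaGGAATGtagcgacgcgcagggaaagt
Wwtr1: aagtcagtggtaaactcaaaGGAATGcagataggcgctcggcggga
The element started 65 bases upstream in Amotl2, 233 in Axl, 141 in Yap1 and, counted from its 2 annotated starts, 170 and 136 in Wwtr1. Lats2 had an element 5 bases after 1 of its 2 starts and none in the window of the other. The AP-1 motif TGANTCA, held by 7.81% of all windows, and the CArG box bound by SRF, held by 1.63%, had no match in these windows on either strand. A match of letters is a description of sequence and does not show that a factor binds there. Genes with higher, lower and near-level RNA in knockout cells (Wwtr1, Ankrd1 and Amotl2) all held the element. Among matched genes of the wider lists outside the 9, it was present in 4 of 14 YAP and TAZ targets and 7 of 21 Hippo genes. It was also in 4 of 10 regulators and targets of SRF and 4 of 6 coactivator, TEAD and cofactor genes. The small families had it in 1 of 2 ankyrin repeat genes, 0 of 4 TAM receptor and ligand genes and 0 of 1 CCN gene.

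**Figure D2:**
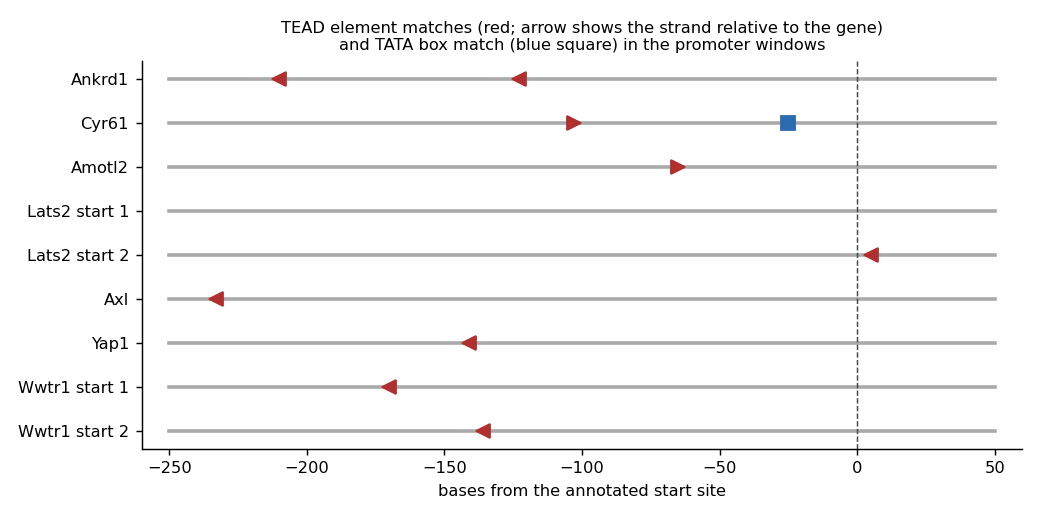
Promoter windows of the 7 matched genes as grey lines, with the horizontal axis in bases from the annotated start (dashed line); red arrows mark CATTCC matches with their strand relative to the gene and the blue square marks TATAAA. Ankrd1 has 2 elements, at 210 and 123 bases upstream, and the first Lats2 window has none.

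Ctgf and Cyr61 encode the secreted CCN matricellular proteins CCN2 and CCN1, the other standard readouts of YAP, and both were among the most abundant transcripts of these cells. Ctgf stood at 450.3 and 455 RPKM in wild type, at 279 and 282 RPKM in heterozygous and at 215 and 214 RPKM in knockout cells. Like Ankrd1 it stepped down through the 3 genotypes without overlap, and its heterozygous mean of 281 ± 2.20 RPKM was 0.620 times and its knockout mean of 215 ± 0.292 RPKM 0.474 times the wild-type mean of 453 ± 3.51 RPKM (SD, n = 2). Ctgf was lower in knockout than in wild-type cells by -1.07 ± 0.01 (log2, SE). It fell by 0.69 ± 0.01 in heterozygous against wild-type cells (limma adjusted p = 1.27e-07), and it fell by 0.39 ± 0.01 from heterozygous to knockout (limma adjusted p = 2.00e-06). Its heterozygous level was below the midpoint of the other genotypes, by a log2 difference of -0.15 ± 0.01 (limma adjusted p = 0.000100), so the step from wild type to heterozygous was the larger of the 2.

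Cyr61 followed another course. It was at 444 and 443 RPKM in wild type and at 444 and 448 RPKM in heterozygous cells, and at 351 and 352 RPKM in knockout cells. The wild-type and heterozygous libraries overlapped and the knockout libraries lay below both. The heterozygous against wild-type log2 difference was 0.01 ± 0.01, with a 95% interval from -0.02 to 0.04 (limma adjusted p = 0.535). Cyr61 fell by 0.34 ± 0.01 from heterozygous to knockout (limma adjusted p = 1.64e-06) and its heterozygous level lay 0.18 ± 0.01 above the midpoint (limma adjusted p = 2.41e-05). The near-level value in heterozygous cells depended on scaling between libraries: with each library scaled to its median gene the difference was -0.07 (limma adjusted p = 0.00233), and under quantile normalization it was 0.09 (limma adjusted p = 0.000806), so its direction is not settled.

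Ctgf and Cyr61 stood in a ratio of 1.02 ± 0.010 in wild-type cells, 0.630 ± 0.000536 in heterozygous cells and 0.610 ± 0.00117 in knockout cells (RPKM over RPKM within a library, SD, n = 2). Multiplying a whole library by 1 factor cannot move such a ratio. The 2 targets were nearly equal in wild-type cells, and Ctgf was the lower one in both other genotypes. Ankrd1 over Ctgf was 0.0515 ± 0.00278, 0.0463 ± 0.00185 and 0.0303 ± 0.00168 in the same order, with the wider gap between heterozygous and knockout libraries.

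**Figure D3:**
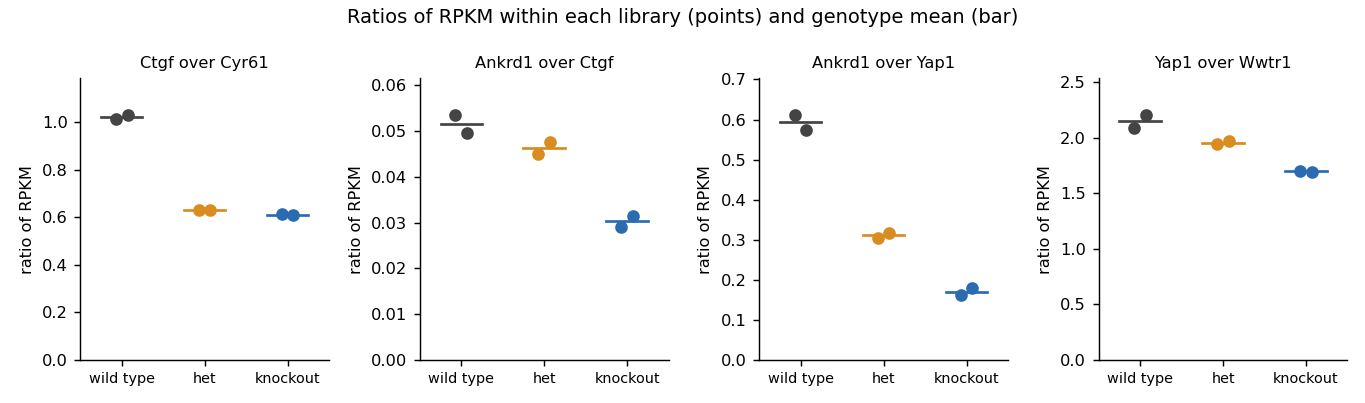
Ratios of RPKM between pairs of the 9 genes within each library (points) with the genotype mean (bars), on vertical axes that start at 0. Ctgf over Cyr61 drops from 1.02 in wild type to 0.630 in heterozygous (het) and 0.610 in knockout cells, whereas Ankrd1 over Yap1 steps down at each genotype, from 0.593 to 0.311 to 0.170.

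Axl encodes a receptor tyrosine kinase of the TAM family that binds the ligand GAS6 and is a described YAP target in several cell types. Its level was 146 and 144 RPKM in wild type, 139 and 137 RPKM in heterozygous and 109 and 112 RPKM in knockout cells. The order was that of Ankrd1, with no overlap, but most of the drop lay between heterozygous and knockout cells. Axl was lower in knockout than in wild-type cells by -0.39 ± 0.02 (log2, SE), and it fell by 0.32 ± 0.02 from heterozygous to knockout (limma adjusted p = 2.79e-05). In heterozygous against wild-type cells it fell by 0.07 ± 0.02 (limma adjusted p = 0.0220), a call that was lost in 3 of 14 alternative analyses and turned to 0.02 under quantile normalization, which put the knockout minus wild-type difference at -0.25; median scaling put the heterozygous one at -0.15. The heterozygous level lay 0.13 ± 0.02 above the midpoint (limma adjusted p = 0.00160).

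The inhibitors Amotl2 and Lats2, which are also described YAP targets, did not share the course of Ankrd1. Amotl2 was at 96.6 and 95.6 RPKM in wild type, at 101 and 103 RPKM in heterozygous and at 99.9 and 100.3 RPKM in knockout cells. Lats2 was at 15.8 and 16.2 RPKM in wild type, at 16.9 and 17.1 RPKM in heterozygous and at 15.0 and 15.2 RPKM in knockout cells. Heterozygous cells held the highest level of both genes, and the 3 genotypes did not overlap for either.

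Amotl2 rose by 0.09 ± 0.02 in heterozygous against wild-type cells (limma adjusted p = 0.00635), or 0.02 with median scaling (limma adjusted p = 0.452). Its knockout minus heterozygous difference of -0.03 ± 0.02 did not pass (limma adjusted p = 0.195). Its knockout minus wild-type difference of 0.06 ± 0.02 turned to -0.02 with median scaling and was 0.18 under quantile normalization, where the heterozygous minus wild-type difference was 0.15. Lats2 missed the threshold in heterozygous against wild-type cells (0.08 ± 0.03, limma adjusted p = 0.0658), fell by 0.16 ± 0.03 from heterozygous to knockout (limma adjusted p = 0.00497) and was at -0.08 ± 0.03 in knockout against wild type, or -0.16 with median scaling, which also put its heterozygous minus wild-type difference at 0.01. Heterozygous levels lay above the midpoint by 0.06 ± 0.02 for Amotl2 (limma adjusted p = 0.0246) and 0.12 ± 0.03 for Lats2 (limma adjusted p = 0.0131).

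Yap1 stood at 39.4 and 39.3 RPKM in wild type, at 41.2 and 42.4 RPKM in heterozygous and at 38.9 and 37.7 RPKM in knockout cells. The heterozygous libraries were highest, and the wild-type and knockout libraries lay close together without overlap. The knockout minus wild-type difference was -0.04 ± 0.03, and it was 0.03 under quantile normalization and -0.12 with median scaling. Yap1 fell by 0.12 ± 0.03 from heterozygous to knockout (limma adjusted p = 0.00853), a call that was lost under quantile normalization (-0.07, limma adjusted p = 0.0939) and without knockout replicate 2 (limma adjusted p = 0.0660). Its rise of 0.09 ± 0.03 in heterozygous against wild-type cells (limma adjusted p = 0.0370) lost its call in 9 of 14 alternatives.

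Wwtr1, which encodes TAZ, ran the other way to Ankrd1. It was at 18.9 and 17.8 RPKM in wild type, at 21.3 and 21.6 RPKM in heterozygous and at 22.8 and 22.3 RPKM in knockout cells, without overlap. The knockout level was 0.28 ± 0.04 (log2, SE) above wild type, and Wwtr1 rose by 0.21 ± 0.04 in heterozygous against wild-type cells (limma adjusted p = 0.00261). The further 0.07 ± 0.04 from heterozygous to knockout did not pass (limma adjusted p = 0.147), but under quantile normalization it was 0.12 and did (limma adjusted p = 0.0284). With median scaling the heterozygous minus wild-type difference was 0.14. Yap1 over Wwtr1 was accordingly 2.14 ± 0.0805, 1.95 ± 0.0176 and 1.70 ± 0.00675 in wild-type, heterozygous and knockout libraries.

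Tead1, the TEAD factor among the 9 genes, was at 21.3 and 21.6 RPKM in wild type, at 24.5 and 24.1 RPKM in heterozygous and at 23.9 and 24.4 RPKM in knockout cells. Heterozygous and knockout libraries overlapped, and both lay above wild type. Tead1 rose by 0.17 ± 0.03 in heterozygous against wild-type cells (limma adjusted p = 0.00245) and was higher by 0.17 ± 0.03 in knockout cells. Median scaling lowered these differences to 0.10 and 0.09. Its knockout minus heterozygous difference was -0.01 ± 0.03, with a 95% interval from -0.08 to 0.06 (limma adjusted p = 0.864).

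In order of their wild-type RPKM, which is per length and so comparable between genes, the genes ran from Ctgf and Cyr61 (453 ± 3.51 and 443 ± 0.901 RPKM) through Axl (145 ± 1.28), Amotl2 (96.1 ± 0.709), Yap1 (39.3 ± 0.130), Ankrd1 (23.3 ± 1.08) and Tead1 (21.4 ± 0.209) to Wwtr1 (18.4 ± 0.750) and Lats2 (16.0 ± 0.289). The libraries of neighbours in this order did not overlap. In knockout cells Cyr61 was highest (351 ± 0.197 RPKM) and Ankrd1 was lowest of the 9 (6.50 ± 0.351 RPKM).

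Counted over the 9 genes, 7 passed the limma threshold in knockout against wild type, 3 higher and 4 lower, where 67.2% of all genes tested passed (40.6% higher and 26.6% lower), and nothing is read from that count. In heterozygous against wild type 7 passed, 4 higher and 3 lower, against 52.6% of all genes (35.5% higher and 17.1% lower). From heterozygous to knockout 6 passed, all of them lower, against 51.8% of all genes in either direction and 25.4% lower. Under quantile normalization 6 passed as well, without Yap1 and with Wwtr1 as a higher gene. The comparisons of heterozygous with wild type and with knockout each share libraries with the comparison known when the genes were chosen. Nothing is read from their counts either. Against the midpoint 7 passed, 6 above and Ctgf below, against 36.8% of all genes (22.4% above and 14.5% below). Without heterozygous replicate 2 the last count was 3 (Ctgf, Cyr61 and Axl). The median of the 9 log2 differences was 0.08 in heterozygous against wild type and -0.16 in knockout against heterozygous, beside 0.07 and -0.00 over all genes. The scaling between libraries moved the balance of all calls: of the genes called, 60.4% were higher in knockout than in wild type as deposited, 46.7% under quantile normalization and 47.2% under median scaling, and in heterozygous against wild type the shares were 67.5%, 51.1% and 45.5%. Against the midpoint they were 60.7%, 51.6% and 45.3%. Under both scalings Ankrd1 and Ctgf were lower and past the threshold in heterozygous against wild type and in knockout against heterozygous.

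The libraries of the genotypes did not overlap for 9 of the 9 genes in wild type and knockout, where 83.8% of all genes did not overlap, for 8 in wild type and heterozygous (76% of all genes) and for 8 in heterozygous and knockout (77.8%). The exact permutation test of 2 libraries against 2 cannot give a p under 0.333, so all adjusted p-values rest on limma's spread shared across genes.

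**Figure D4:**
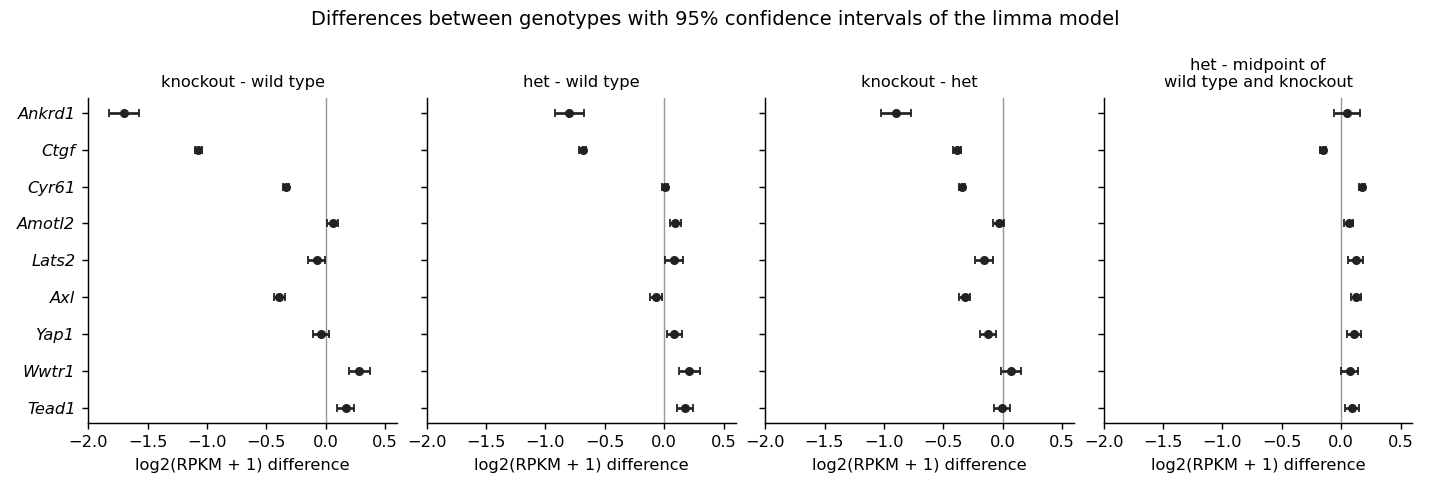
Differences in log2(RPKM + 1) between genotypes for the 9 genes, with 95% confidence intervals of the limma model (3 residual degrees of freedom); het is heterozygous. Ankrd1 and Ctgf lie far to the left in the first 2 panels (-1.70 and -1.07 in knockout minus wild type). In the third panel Ankrd1 (-0.90) stands apart, while Ctgf (-0.39) lies near Cyr61 (-0.34) and Axl (-0.32). In the last panel the Ankrd1 interval, from -0.06 to 0.16, includes 0 while Ctgf lies below and Cyr61 above it.

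The genes whose course over the 6 libraries was nearest to that of Ankrd1 were found by the root mean square distance of centred log2(RPKM + 1) values among 10896 genes. They were Gm8096 (distance 0.0992), Vmn2r-ps54 (0.104), Fibin (0.105), Phgdh (0.109) and Htra1 (0.112). None of the 9 genes was among them. Fibin, a secreted factor of limb mesenchyme, had means of 5.27, 2.66 and 1.26 RPKM in the order wild type, heterozygous, knockout, and Htra1, a secreted serine protease, means of 54.3, 36.5 and 17.4 RPKM. Phgdh, the first enzyme of serine synthesis, had means of 275, 133 and 80.0 RPKM. Gm8096 (66.4, 32.8 and 19.2 RPKM) and Vmn2r-ps54 (9.69, 4.79 and 2.64 RPKM) are a predicted gene and a pseudogene, and whether their rows share reads with other genes was not tested. Nearest to Yap1 were Fubp3 (distance 0.00822), Tmem259 (0.0107), Oxnad1 (0.0138), E2f1 (0.0139) and Slc25a5 (0.0152). Their highest mean was in heterozygous cells like that of Yap1, an order that the search itself selects.

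The remaining pathway genes came from lists that leave out the 9 genes. Of 24 Hippo kinases, adaptors and upstream inputs above the filter, 11 rose and 5 fell in knockout against wild type (40.6% and 26.6% of all genes), with a median log2 difference of 0.08 beside 0.06 over all genes; median scaling made this 9 and 7, with a median of -0.00. Fat4, an atypical cadherin upstream of the kinases, rose from 1.58 ± 0.0421 to 5.49 ± 0.0376 RPKM (log2 difference 1.33 ± 0.04, limma adjusted p = 5.10e-07), with heterozygous cells at 2.89 ± 0.00738 RPKM. Taok1, a kinase that activates the Hippo kinases, rose by 0.88 ± 0.05 (limma adjusted p = 3.99e-06), and Stk3, which encodes the Hippo kinase MST2, rose by 0.81 ± 0.08 (limma adjusted p = 0.000107). Amot, the angiomotin gene related to Amotl2, rose from 6.90 ± 0.111 to 13.2 ± 0.177 RPKM (0.85 ± 0.04, limma adjusted p = 2.14e-06). The kinase Lats1 rose by 0.54 ± 0.05 while the angiomotin Amotl1 fell by 0.43 ± 0.03 (limma adjusted p = 5.53e-05 and 2.73e-05). Stk4, the paralog of Stk3, fell from 6.02 ± 0.124 to 4.78 ± 0.0190 RPKM (-0.28 ± 0.04, limma adjusted p = 0.000926). Lats1, Amotl1 and Stk4 were named after their values were seen, since they are the paralogs of Lats2, Amotl2 and Stk3. The largest fall of the list was that of Frmd6, from 57.4 ± 0.639 to 41.8 ± 0.294 RPKM (-0.45 ± 0.02, limma adjusted p = 3.76e-06). Frmd6 too was named after its values were seen. In heterozygous against wild type 13 of the 24 rose and 2 fell (35.5% and 17.1% of all genes), or 11 and 3 with median scaling and 12 and 3 under quantile normalization.

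Of the TEAD factors other than Tead1, Tead2 had means of 17.8, 17.1 and 19.8 RPKM in the same order and rose in knockout against wild type by 0.14 ± 0.04 (limma adjusted p = 0.0103), a call that was lost in 3 of 14 alternatives. Tead3 (0.07 ± 0.03, limma adjusted p = 0.111) and Tead4 (0.09 ± 0.07, limma adjusted p = 0.322) did not pass. The TEAD cofactors Vgll3 and Vgll4, which compete with YAP for TEAD binding, rose: Vgll3 from 20.8 ± 0.760 to 29.5 ± 0.407 RPKM (0.49 ± 0.04, limma adjusted p = 2.09e-05) and Vgll4 by 0.40 ± 0.06 (limma adjusted p = 0.000686). Both were already higher in heterozygous cells, at 25.6 and 9.09 RPKM. Vgll1 and Vgll2 were under the filter.

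Of the other 22 described YAP and TAZ targets, 11 rose and 8 fell in knockout against wild type (40.6% and 26.6% of all genes), and 5 rose and 9 fell in heterozygous against wild type (35.5% and 17.1% of all genes). Median scaling turned these splits to 8 and 10 and to 4 and 11, and quantile normalization to 10 and 7 and to 5 and 6. Among those that fell, Tgfb2, a TGF-beta ligand, went from 7.74 ± 0.303 to 3.59 ± 0.107 RPKM (-0.93 ± 0.09, limma adjusted p = 7.64e-05), and Fjx1 fell by 0.83 ± 0.06 (limma adjusted p = 1.50e-05). The counts include Edn1, the endothelin gene, at 1.31, 0.716 and 0.478 RPKM, which passed the filter through its wild-type level alone and for which no test is given. Igfbp3, a secreted binding protein of insulin-like growth factors, rose instead, from 4.87 ± 0.0840 RPKM in wild type to 34.7 ± 0.020 in heterozygous and 36.8 ± 0.0136 RPKM in knockout cells (2.69 ± 0.03, limma adjusted p = 1.11e-08). The knockout minus heterozygous differences of Tgfb2 (0.11 ± 0.09, limma adjusted p = 0.351) and Igfbp3 (0.08 ± 0.03, limma adjusted p = 0.0559) did not pass, where that of Ankrd1 was -0.90 ± 0.05.

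The CCN family split. Beside Ctgf and Cyr61, Wisp1 fell from 34.6 to 25.5 RPKM in knockout against wild type (-0.43 ± 0.03, limma adjusted p = 1.45e-05). Wisp2 rose from 12.1 ± 0.366 to 33.7 ± 0.873 RPKM (1.41 ± 0.03, limma adjusted p = 1.38e-07) with a heterozygous mean of 38.8 ± 0.257 RPKM, and Nov had means of 0.206, 0.701 and 2.11 RPKM from wild type through heterozygous to knockout. Nov passed the filter through its knockout level alone, so no test is given for it. Wisp3 was under the filter. Around the receptor Axl, its ligand Gas6 rose from 111 ± 3.88 to 160 ± 2.78 RPKM, through 133 ± 1.22 RPKM in heterozygous cells (0.52 ± 0.03, limma adjusted p = 3.76e-06), and the related ligand Pros1 rose by 0.55 ± 0.04 (limma adjusted p = 2.29e-05). The sister receptor Tyro3 was at -0.11 ± 0.05 (limma adjusted p = 0.0964) and Mertk was under the filter.

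SRF and its coactivators of the MRTF family drive many cytoskeletal genes in response to actin and share targets with YAP. Of 13 regulators and targets of this kind, 8 fell and 4 rose in knockout against wild type (26.6% and 40.6% of all genes), and 7 fell and 4 rose in heterozygous against wild type (17.1% and 35.5% of all genes). The heterozygous split was 8 and 1 with median scaling and 7 and 2 under quantile normalization. The smooth muscle genes Actg2 (-1.17 ± 0.02, limma adjusted p = 1.68e-08), Cnn1 (-1.05 ± 0.03, limma adjusted p = 5.11e-07) and Acta2 (-0.80 ± 0.01, limma adjusted p = 1.11e-08) fell. Cnn1 was lowest in heterozygous cells, at 57.6 RPKM against 162 RPKM in wild type and 77.9 RPKM in knockout cells, where Ankrd1 was lowest in knockout. Acta2 had the same order, at 1021 RPKM in heterozygous cells against 1974 RPKM in wild type and 1132 RPKM in knockout cells. So did the means of Tagln, Vcl and Myl9, while those of Actg2, Tpm1 and Fhl2 were lowest in knockout cells. Egr1, an immediate early gene, rose from 28.4 to 52.5 RPKM (0.86 ± 0.03, limma adjusted p = 1.10e-06), and Srf itself did not pass (0.03 ± 0.04, limma adjusted p = 0.554).

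**Figure D5:**
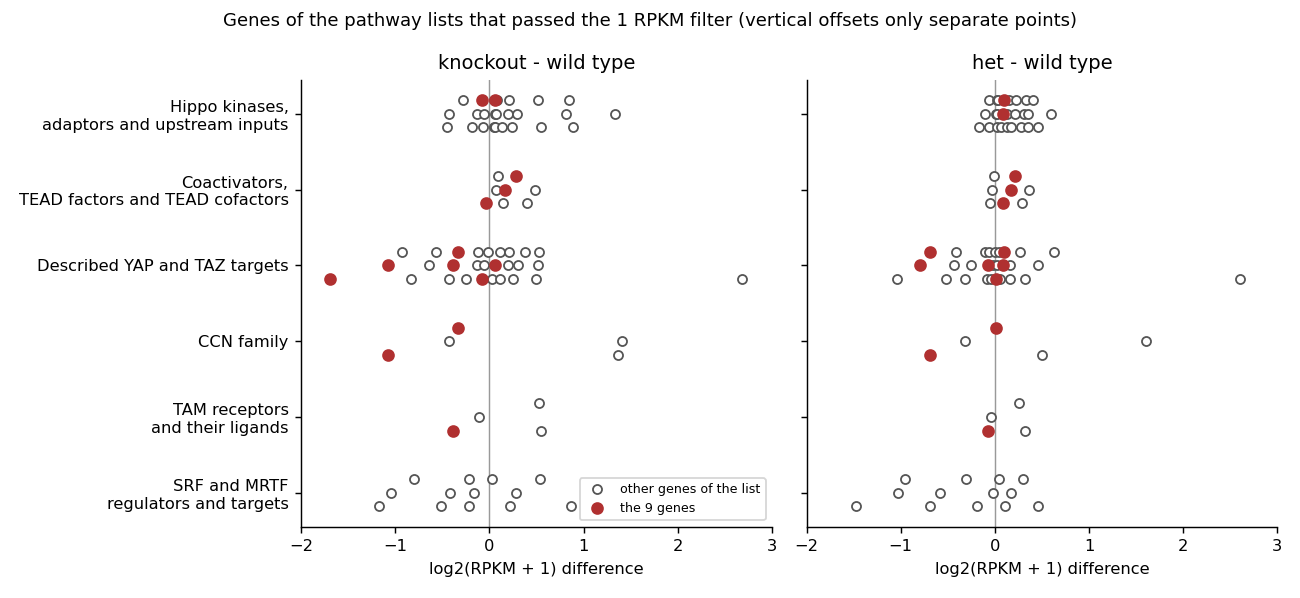
Differences in log2(RPKM + 1) of every gene above the filter in 6 pathway lists, in knockout minus wild type (left) and heterozygous (het) minus wild type (right), with red points for the 9 genes and open points for the others. Genes of each list lie on both sides of 0 in the left panel, and among the described targets the points span from Ankrd1 at -1.70 to Igfbp3 at 2.69.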

How the data were processed

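Poly(A)-selected RNA libraries were made by a strand-marking (dUTP) protocol, per the labels' protocols. The submitters' processing notes name TopHat and mm9. Its version, the annotation and any use of strand in counting: not given in the sources used here. The deposited table holds 1 value per gene symbol and library and does not name a unit. The deposited values were taken as RPKM, as made by the authors from aligned reads per gene length and library depth, since the lowest values of genes of up to 2500 bases repeat at the worth of 1 read per gene length. Depth (27.9M to 48.1M reads) was recovered from that worth. The values are not whole reads (tolerance 0.01 reads) for most genes, so no count test was run. Genotypes came from the labels; replicates were not paired.

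The fit used log2(RPKM + 1) of 10897 genes (a minimum of 1 RPKM in any 2 of the 6 libraries). Means of 3 genotypes were fitted with limma 3.58.1 in R 4.3.3 (eBayes, intensity trend, residual df of 3). Tests were two-sided, Benjamini-Hochberg adjusted over all genes, with a threshold of 0.05. The p-values measure only the spread between these libraries. The members and lists were chosen with earlier results of these data known. Named were all 9 genes, every gene of the small families (CCN, ankyrin repeat, TAM, TEAD and cofactors), up to 4 called genes of each other list by size of the knockout against wild-type difference, and the 5 nearest genes to Ankrd1 and to Yap1. The fit was run on simulated data in which few genes changed, unlike these data, and no result above rests on that run. Alternatives were 2 other pseudocounts, 2 filters, 2 scalings, a fit without trend, a replicate block and leaving out each library. Promoter sequences are from RefSeq, GRCm38.p6; no coordinate was converted from mm9. The ChIP libraries were left out because no RNA comparison uses them.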

Additional observations from a re-analysis of the deposited data

How the results depend on the processing

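Under all 14 alternatives Ankrd1, Ctgf and Cyr61 kept the direction of their knockout minus heterozygous difference, as did Ankrd1 and Ctgf in heterozygous against wild type. Where all 6 libraries were kept, these differences also stayed on the same side of the threshold. The knockout minus wild-type differences were known when the genes were chosen and are a description. Over the alternatives they ran from -1.83 to -1.30 for Ankrd1, -1.15 to -1.05 for Ctgf and -0.41 to -0.31 for Cyr61. With a filter of 5 RPKM 4754 genes were called in knockout against wild type rather than 7324, with fewer genes tested. Against the midpoint, leaving out 1 library gave between 2632 and 3722 genes called rather than 4014 and between 3 and 6 of the 9 genes rather than 7, the lowest of both without heterozygous replicate 2. Median scaling turned Amotl2 to -0.020 and Tead3 to -0.010 in knockout against wild type and Cyr61 to -0.066 in heterozygous against wild type. Quantile normalization turned Yap1 to 0.029 (median scaling: -0.12) and Tead4 to -0.12 in knockout against wild type, Axl to 0.025 and Stk3 to -0.0040 in heterozygous against wild type, where it put Cyr61 at 0.086, and Amotl2 to 0.028 and Tead1 to 0.055 in knockout against heterozygous, where it ended the call of Yap1 and added Wwtr1. Leaving out 1 library put Tead1 in knockout against heterozygous between -0.021 and 0.0072 (turned without heterozygous replicate 1 or knockout replicate 1), Tead4 in knockout against wild type between -0.010 and 0.19 (turned without knockout replicate 1), and Tead4 in heterozygous against wild type between -0.061 and 0.051 (turned without wild-type replicate 1 or heterozygous replicate 2). A pseudocount of 5 put heterozygous Ankrd1 at -0.0045 against the midpoint. The cause of these turns was not tested. Against the midpoint, the call of Tead1 was lost in 8 alternatives and that of Amotl2 in 6. Replicate numbers did not pair the libraries (correlations of deviations -0.09, -0.06 and 0.06); with the number as a replicate block 7253, 5564, 5448 and 3758 genes were called in the 4 comparisons rather than 7324, 5729, 5644 and 4014, and of the calls of the 9 genes the block ended that of Yap1 in heterozygous against wild type (limma adjusted p = 0.0558). Depth limits Ankrd1 most among the 9 genes.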
